A study of Equus caballus with 12 samples.

Results

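The 8 genes described here belong to the circadian clock: ARNTL, NPAS2, RORA, NFIL3, BHLHE40, PER3, DBP and HLF. They were picked by symbol from the authors' deposited table of genes that differed between cytokine-licensed and naive equine mesenchymal stem cells (MSCs), which lists 1341 genes. The table was itself selected on that difference, so the direction and size of each gene's change are given as a description, with no test. Expression was measured by bulk RNA sequencing in bone marrow MSCs of 6 horses, with 1 licensed and 1 naive culture per horse. The licensed cultures received 2 ng/ml recombinant human IL-1β, an inflammatory cytokine, and 1 ng/ml recombinant human TGF-β2, which drives matrix synthesis and differentiation, for 72 hours. The naive cultures of the same horses were kept for the same time in the standard medium alone, a low glucose DMEM with fetal bovine serum that both groups shared. Each culture was sampled once, so a changed level and a shifted phase of a daily rhythm cannot be told apart.

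The circadian clock is a feedback loop of transcription that runs in most cells, cultured fibroblasts and stromal cells included. ARNTL, also called BMAL1, pairs with CLOCK or its paralog NPAS2 and activates genes through a DNA element called the E-box, among them the period (PER) and cryptochrome (CRY) genes, whose proteins then repress the pair. A second loop sets the level of ARNTL through nuclear receptors, with the ROR proteins as activators and the REV-ERB proteins as repressors. The PAR bZIP factors DBP, HLF and TEF activate genes through the D-box, NFIL3 represses through the same element, and BHLHE40, also called DEC1, represses through the E-box. The genes of DBP and PER3 are themselves E-box targets of the ARNTL pair in mouse and human cells.

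In licensed MSCs the activator genes ARNTL, NPAS2 and RORA and the repressor genes NFIL3 and BHLHE40 were higher, and PER3 and the D-box activator genes DBP and HLF were lower. The authors' deposited table lists a gene when its adjusted p is below 0.05 and it changed more than 2-fold, and it holds these genes as 5 rises and 3 falls. About 13183 genes were tested, of which 10.2% were listed, 5.08% as higher and 5.09% as lower. That number of tested genes was inferred from the ratio of the deposited adjusted p to p, and since the genes were taken from this list nothing is read from these shares. The changes were moderate within the table. The deposited log2 fold changes of the 5 rises had a median of 1.49, against 1.60 over all 670 listed rises, and those of the 3 falls a median of -1.12, against -1.48 over all 671 listed falls. Of the 8 genes, 7 moved the same way in all 6 horses, as did 93.8% of the listed genes, and HLF was the exception. The licensed and naive values did not overlap for 5 of the 8, against 59.2% of the listed genes. Levels below are normalized counts, which are read counts that the authors divided by 1 size factor per library, and in bulk RNA fewer cells of a type and less RNA per cell cannot be told apart. When each library was scaled instead to its sum over the listed genes, the median listed gene shifted by -0.61 on the log2 scale. Within a horse that sum was 1.37 to 1.76 times as high in the licensed culture (median 0.59 on the log2 scale). This scaling therefore lowered the difference of every gene by about that much. The rises were then smaller, from 0.43 for NPAS2 to 1.24 for BHLHE40, and the falls larger, from -1.57 for HLF to -1.83 for DBP, with every direction kept.

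**Figure D1:**
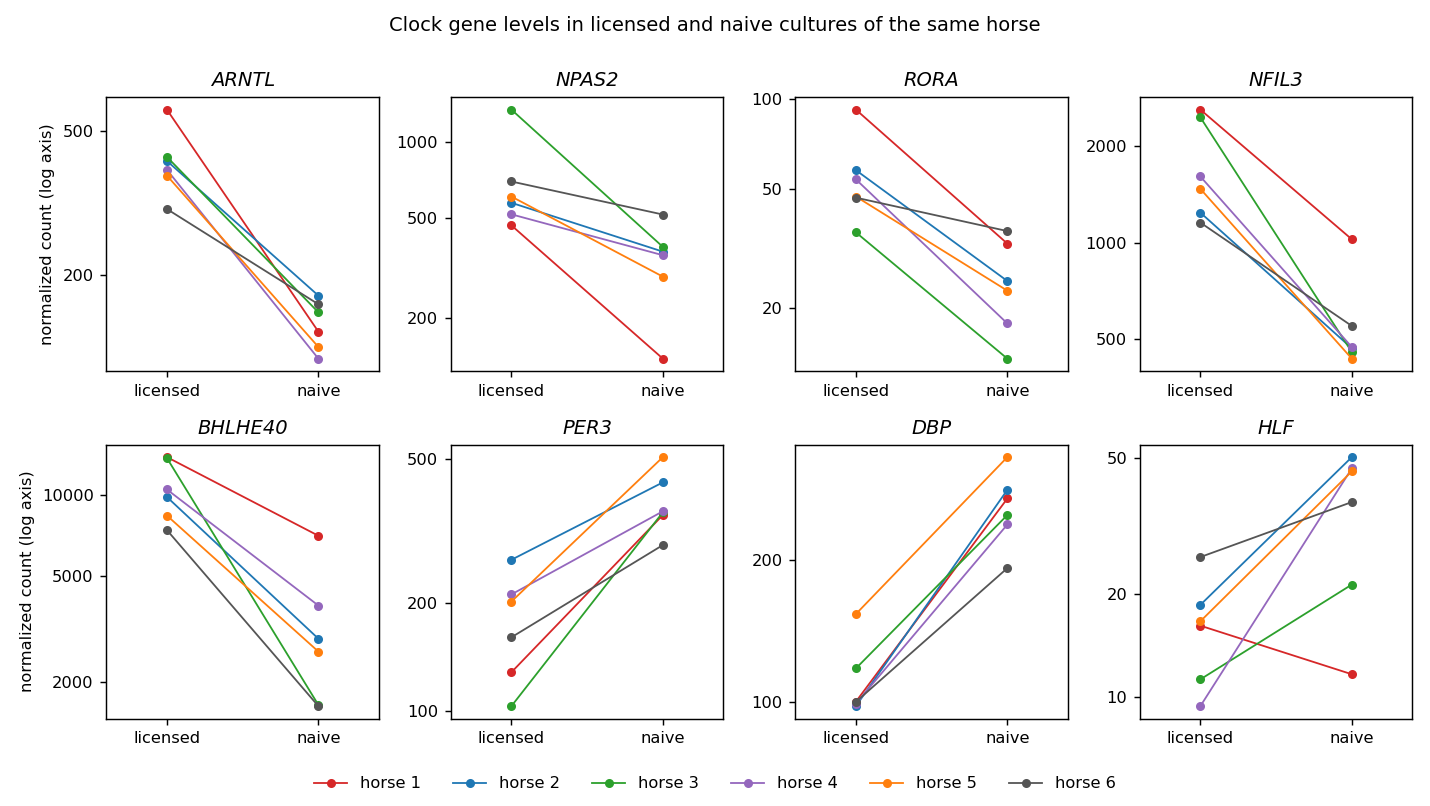
Each panel plots the normalized count of 1 clock gene (log axis) in the licensed and naive culture of each horse, joined by a line, with 6 horses per panel. ARNTL, NFIL3, BHLHE40, PER3 and DBP have licensed and naive values that do not overlap, and the line of horse 1 runs against the other 5 for HLF.

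ARNTL (ENSECAG00000012118), the shared partner of CLOCK and NPAS2, ranged from 304 to 572 normalized counts in licensed cultures with a median of 401, against 118 to 176 with a median of 149 in naive cultures. Every licensed culture lay above every naive one. The difference, licensed minus naive on the log2(normalized count + 1) scale, was 1.47 ± 0.18 (limma SE, n = 6 horses) and lay between 0.87 in horse 6 and 2.02 in horse 1. The limma SE, here and below, does not use the pairing of cultures by horse. The log2 fold change of ARNTL in the authors' deposited table was 1.49, with the smallest adjusted p of the 8 genes, 3.16e-18. Its naive level was also among the steadier ones between horses, with an SD of 0.23 on the log2 scale, against a median SD of 0.56 over the listed genes.

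NPAS2 (ENSECAG00000000171), which can take the place of CLOCK beside ARNTL, ranged from 468 to 1352 normalized counts in licensed cultures with a median of 592, against 138 to 516 with a median of 361 in naive cultures. The groups overlapped, because the licensed culture of horse 1, the lowest of its group, lay below the naive culture of horse 6, the highest of its group. Within each horse the licensed culture was the higher one, by 0.44 in horse 6 to 1.81 in horse 3 on the log2 scale (mean 1.04 ± 0.32, limma SE, n = 6 horses). The authors' deposited log2 fold change of 1.04 is the smallest of the 8 genes and lies just inside the 2-fold limit of the table, where it ranks 634 of 670 rises by size.

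RORA (ENSECAG00000016384), a nuclear receptor that activates ARNTL in the second loop, had few reads per library, 35 to 91 in licensed and 14 to 35 in naive cultures. It had 35.8 to 91.9 normalized counts in licensed cultures with a median of 50.5, against 13.6 to 36.1 with a median of 23.7 in naive cultures. The groups met only at the edge, where the lowest licensed value, that of horse 3, lay just under the highest naive value, that of horse 6. The difference was positive in 6 of 6 horses and averaged 1.15 ± 0.30 on the log2 scale (limma SE). In horse 6 it was 0.36, from 51 reads in the licensed and 35 in the naive library, and the 95% exact Poisson intervals of these values, 34.8 to 61.4 and 25.2 to 50.3 normalized counts, overlapped. Such intervals cover counting error only.

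NFIL3 (ENSECAG00000002437), the bZIP repressor of D-box genes, ranged from 1154 to 2599 normalized counts in licensed cultures with a median of 1539, against 434 to 1024 with a median of 470 in naive cultures. The naive culture of horse 1 held the 1024, and the other 5 naive cultures lay between 434 and 549. No naive value reached the lowest licensed one. The difference averaged 1.63 ± 0.26 on the log2 scale (limma SE) and ranged from 1.07 in horse 6 to 2.43 in horse 3.

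BHLHE40 (ENSECAG00000015069), the bHLH repressor of E-box genes, had a difference of 1.85 ± 0.32 on the log2 scale (limma SE, n = 6 horses). This difference was the largest of the 8 genes with the authors' scaling. With libraries scaled to their sum over listed genes it was 1.24, against -1.57 to -1.83 for HLF, PER3 and DBP. With edgeR on recovered reads it was 1.45, against -1.46 for DBP. BHLHE40 ranged from 7420 to 13904 normalized counts in licensed cultures with a median of 10194, against 1629 to 7065 with a median of 2759 in naive cultures. The naive culture of horse 1 was again the highest, at 7065 against 1629 to 3873 in the others, and fell short of the lowest licensed value. The fold within a horse spread widely, being 1.97 in horse 1, 8.38 in horse 3 and 2.72 to 4.55 in the others. Without horse 1 the log2 difference was 2.03.

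PER3 (ENSECAG00000018928), a period protein of the repressing limb, ranged from 103 to 263 normalized counts in licensed cultures with a median of 181, against 289 to 507 with a median of 358 in naive cultures. All licensed cultures lay below all naive ones. The difference averaged -1.15 ± 0.24 on the log2 scale (limma SE) and was negative in 6 of 6 horses, between -1.78 in horse 3 and -0.71 in horse 2.

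DBP (ENSECAG00000014275), the D-box activator whose transcript swings strongly over the day in many mouse tissues, ranged from 97.8 to 153 normalized counts in licensed cultures with a median of 99.9, against 192 to 330 with a median of 259 in naive cultures. The licensed values of horses 1, 2, 4 and 6 lay close together at 97.8 to 100.0 normalized counts, and horse 5 was highest in both conditions. The difference averaged -1.22 ± 0.19 on the log2 scale (limma SE), and its SD between horses, 0.22, was the smallest of the 8 genes. The authors' deposited adjusted p was 2.56e-12.

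HLF (ENSECAG00000016953), the other D-box activator of the set, had the fewest reads of the 8 genes. Its level was 9.39 to 25.7 normalized counts in licensed cultures with a median of 16.4, against 11.6 to 50.3 with a median of 41.4 in naive cultures. The libraries held 11 to 28 licensed and 11 to 47 naive reads of this gene. The licensed culture was lower in 5 of 6 horses and higher in horse 1, where 16 reads stood against 11 and the 95% exact Poisson intervals, 9.23 to 26.2 and 5.81 to 20.8 normalized counts, overlapped. The mean difference was -0.99 ± 0.38 on the log2 scale (limma SE) with all horses and -1.28 without horse 1. The authors' deposited table gives HLF a log2 fold change of -1.12 and an adjusted p of 0.0130, the largest of the 8 genes.

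**Figure D2:**
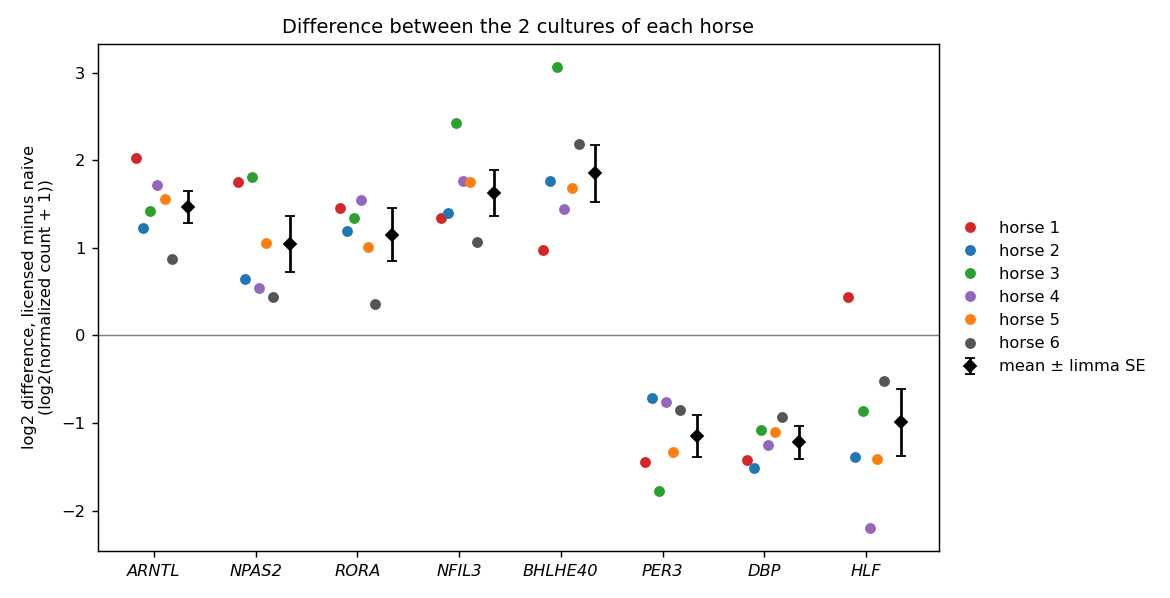
Points are the difference between the licensed and the naive culture of each of the 6 horses on the log2(normalized count + 1) scale. Diamonds are the mean and bars the limma SE. This SE comes from a fit without a term for the horse and is not that of the paired points. Every point lies on 1 side of 0 for 7 genes, and for HLF the point of horse 1 lies above 0, at 0.44.

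Members that moved in opposite directions were also set against each other within a library, as a ratio that does not depend on how libraries were scaled. The ratios were chosen after the values were seen and pair a gene higher in every horse with one lower in every horse, so their direction is fixed by that choice and only their size is described. The ratio of NFIL3, the D-box repressor, to DBP, the D-box activator, was 4.04 to 11.4 times as high in the licensed as in the naive culture of the same horse, a mean change of 2.86 ± 0.49 on the log2 scale (SD, n = 6 horses). The ratio of ARNTL to PER3 was 3.30 to 11.2 times as high, and that of BHLHE40 to DBP 5.31 to 17.7 times as high. The smallest change of the NFIL3 to DBP ratio, 2.01 on the log2 scale, and of the ARNTL to PER3 ratio, 1.72, were both those of horse 6. For BHLHE40 to DBP the smallest change, 2.41, was that of horse 1, and horse 6 had 3.13. Transcript lengths enter each ratio alike in both conditions, so the change can be read and the ratio itself cannot.

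**Figure D3:**
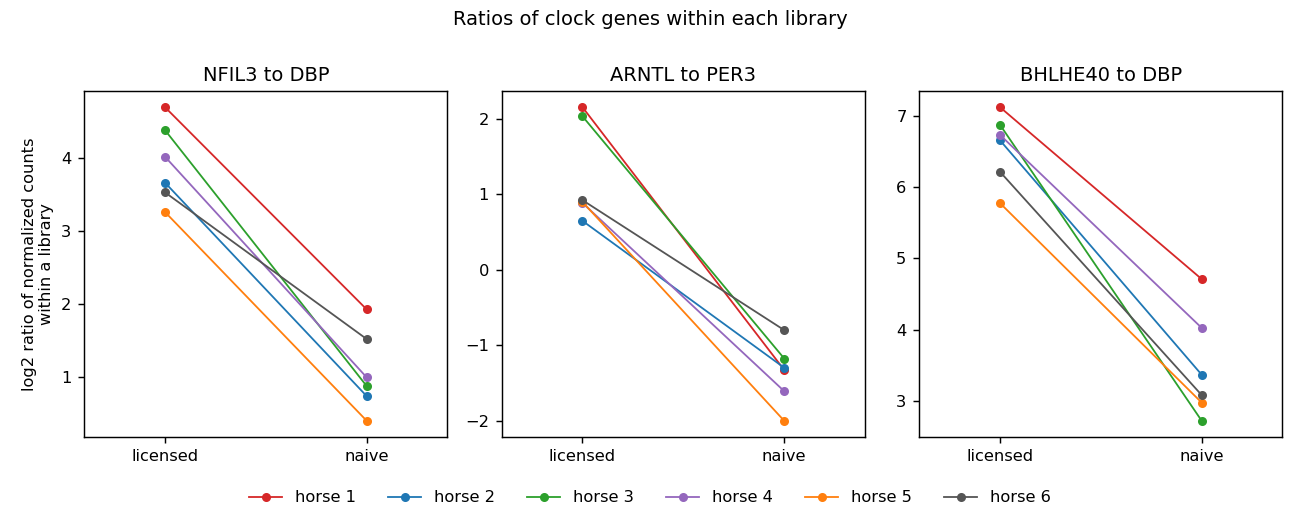
Each panel plots the log2 ratio of the normalized counts of 2 clock genes within a library, for the licensed and the naive culture of each horse. In each panel the licensed culture lies above the naive one in all 6 horses, by 2.01 to 3.51 for NFIL3 to DBP and by 1.72 to 3.48 for ARNTL to PER3.

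The size of the clock gene changes varied over the 6 pairs of cultures. Horse 6 had the smallest change of the 6 horses, counted in the deposited direction, for ARNTL, NPAS2, RORA, NFIL3 and DBP, that is 5 of the 8 genes, while it was smallest for 15.7% of all listed genes. Its median change over the 8 genes was 0.86 on the log2 scale, against 1.31 to 1.60 in the other horses, and over all listed genes it was 1.47, against 1.47 to 1.66 in the others. For BHLHE40 the change of horse 6, 2.19, was exceeded only in horse 3, at 3.07. Horse 3 had the largest change for NPAS2, NFIL3, BHLHE40 and PER3, and was largest for 27.0% of the listed genes. These are counts over 1 pair of cultures per horse, and whether horses differ could not be tested.

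Horse 1 stood apart in a different way. Its naive library held 400 normalized counts of TNFAIP3, an inhibitor of NF-κB signalling that inflammation induces, against 6.66 to 15.0 in the other 5 naive libraries. Among the clock genes that library was highest for NFIL3 and BHLHE40 and lowest for NPAS2 and HLF, while ARNTL, RORA, PER3 and DBP lay inside the range of the other naive cultures. NFIL3, BHLHE40 and HLF thus deviated toward the licensed level and NPAS2 away from it. The naive library of horse 1 was highest or lowest for 61.1% of all listed genes, and for 4 of these 8. The naive library of horse 6 was highest or lowest for 5 of the 8, more than that of horse 1, and for 28.3% of all listed genes. Without horse 1 all 8 clock genes moved the same way in the remaining horses, as did 96.3% of listed genes. Its licensed library was highest for ARNTL, RORA, NFIL3 and BHLHE40 and lowest for NPAS2. The part of the high TNFAIP3 level in these values was not tested.

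Whether the clock genes varied together between horses within 1 condition is not what the table was selected on. Its limit on adjusted p does depend on the spread within a condition, and the 8 genes were chosen with earlier results of these data known. Pearson's r and Spearman's rho over the 6 horses were computed for 64 relations, namely all pairs of the 8 genes within each condition and the licensed against the naive level of each gene. None passed an adjusted p of 0.05 (exact permutation test over 720 pairings, two-sided, Benjamini-Hochberg over the 64 relations). The smallest p the test allows, 0.00139, would reach only 0.0889 after adjustment if 1 relation stood alone, and 5 relations had an unadjusted p at or below 0.05 for r.

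In licensed cultures the 3 relations of r with the smallest p were positive and joined ARNTL, NFIL3 and BHLHE40. ARNTL and BHLHE40 had r = 0.855 (exact permutation p = 0.0125, adjusted p = 0.338) and rho = 0.943 (p = 0.0167, adjusted p = 0.356), and r was 0.819 without the 2 horses farthest from the median of ARNTL. NFIL3 and BHLHE40 had r = 0.924 (exact permutation p = 0.0236, adjusted p = 0.338) and rho = 0.943 (p = 0.0167, adjusted p = 0.356), and r was 0.610 without the 2 farthest horses. ARNTL and NFIL3 had r = 0.799 (exact permutation p = 0.0250, adjusted p = 0.338) and rho = 0.829 (p = 0.0583, adjusted p = 0.731). This r was 0.457 without the 2 farthest horses, and 0.631 to 0.902 when 1 horse at a time was left out. Leaving out the 2 farthest horses narrows the range of a gene, which can lower r by itself. Not all genes that were higher varied together, and NPAS2 and RORA, named after their values were seen, had r = -0.810 (exact permutation p = 0.0819, adjusted p = 0.656) and rho = -0.943 (p = 0.0167, adjusted p = 0.356), with r at -0.711 without the 2 farthest horses.

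In naive cultures PER3 and DBP had r = 0.942 (exact permutation p = 0.0167, adjusted p = 0.338) and rho = 0.771 (p = 0.103, adjusted p = 0.731). Horse 5 was highest and horse 6 lowest for both genes, and without these 2 horses r was 0.655. In licensed cultures the same genes had r = -0.0587 (exact permutation p = 0.878, adjusted p = 0.969) and rho = -0.657 (p = 0.175, adjusted p = 0.800), with r at 0.445 without the 2 farthest horses, and the difference between the conditions was not tested. NPAS2 and BHLHE40 had r = -0.873 in naive cultures (exact permutation p = 0.0264, adjusted p = 0.338) and rho = -0.829 (p = 0.0583, adjusted p = 0.731), but -0.237 without the 2 horses farthest in NPAS2, horse 1 among them. NFIL3 and HLF had r = -0.814 (exact permutation p = 0.0583, adjusted p = 0.622) and rho = -0.371 (p = 0.497, adjusted p = 0.816), and r was 0.132 without the 2 farthest horses and -0.00789 without horse 1, so this relation rested on that horse.

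**Figure D4:**
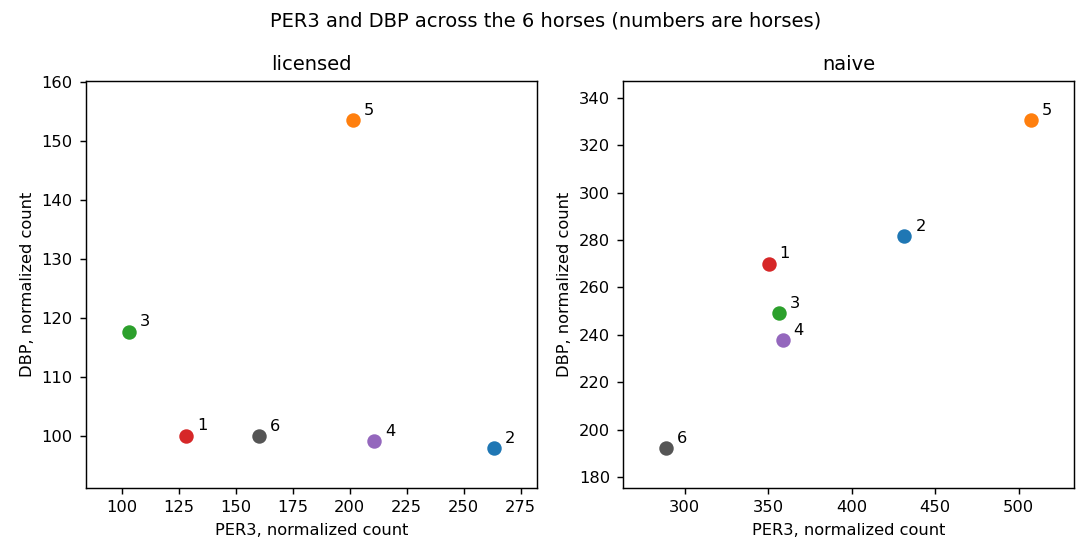
DBP is plotted against PER3 (both in normalized counts) for the licensed and the naive cultures, with 1 point per horse and the horse's number beside it. In naive cultures horse 6 is lowest and horse 5 highest on both axes (r = 0.942), and in licensed cultures r is -0.0587.

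No relation between a horse's licensed and naive level of the same gene was detectable with 6 horses. Pearson's r was lowest for ARNTL, at -0.166 (exact permutation p = 0.792, adjusted p = 0.944), with rho = 0.0286 (p = 1, adjusted p = 1) and r = -0.400 without the 2 farthest horses. It was highest for DBP, at 0.632 (exact permutation p = 0.228, adjusted p = 0.822), with rho = 0.314 (p = 0.564, adjusted p = 0.880) and r = -0.371 without the 2 farthest horses. These relations share donors and not cultures.

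For each clock gene the listed genes with the most similar variation were looked up by Pearson's r of the deviations from the condition means over the 12 libraries. They are the highest of 1340 values for each gene, so their size reflects that choice and carries no test. The nearest genes to NFIL3 were IL6 (r = 0.951) and ERN1 (r = 0.930), and without horse 1 these values were 0.860 and 0.790. BHLHE40 was nearest to IL34 (r = 0.934) and ANKRD33B (r = 0.927), NPAS2 to the unnamed ENSECAG00000035561 (r = 0.885) and EEF2K (r = 0.880), and RORA to FABP4 (r = 0.873) and ANOS1 (r = 0.866). PER3 varied most like TCN1 (r = 0.851) and DNAH7 (r = 0.851), DBP like ECMX (r = 0.845) and CHL1 (r = 0.827), HLF like MACROD1 (r = 0.884) and ANKRD35 (r = 0.867), and ARNTL like KIAA1755 (r = 0.821) and PTGR1 (r = 0.801). Without horse 1 the r of the pairs other than those of NFIL3 lay between 0.656 (ARNTL and KIAA1755) and 0.917 (PER3 and TCN1). No clock gene was among the 2 nearest of another, which says little because the other clock genes are few among the 1340 compared.

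Other genes of the loop were looked for in the same table. Of 24 further genes of the clock loop and its enzymes, among them CLOCK, PER1, PER2, the cryptochromes, the REV-ERB genes NR1D1 and NR1D2, TEF and the casein kinases, 0 were listed, against 10.2% of all tested genes. How many genes of this or the following lists were among those tested is unknown, so no list's count can be called different from that share. The 24 genes leave out the 8 clock genes, which were taken from the listed ones, so the 0 follows in part from that choice. Genes that were not listed are not analysed here, so their levels are unknown. Of 25 genes known as outputs of the clock in some tissue, 5 were listed, 1 as higher and 4 as lower, with a median deposited log2 fold change of -1.20. KLF15, a Krüppel-like factor of fasting metabolism, had 0.98 to 9.20 normalized counts in licensed and 8.31 to 30.0 in naive cultures, and PDK4, a brake on glucose oxidation, 32.7 to 94.9 in licensed and 75.9 to 360 in naive cultures. TSPAN4, a tetraspanin, had a deposited log2 fold change of -1.20 and CYP7A1, the rate-limiting enzyme of bile acid synthesis in liver, of -1.10. The deposited adjusted p of CYP7A1, 0.0489, lay at the limit, and its limma difference was -0.86. Its groups overlapped, with 27.5 to 95.9 normalized counts in licensed and 42.6 to 300 in naive cultures.

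Relatives of the clock factors were listed in both directions. Of 17 further bHLH-PAS genes, the family of ARNTL and NPAS2, 2 were listed. HIF1A, the hypoxia factor, had a median of 17647 normalized counts in licensed and 7523 in naive cultures, and AHRR, the repressor of the aryl hydrocarbon receptor, of 15.1 in licensed and 107 in naive cultures. Among 6 bZIP genes of the C/EBP group, CEBPD was listed as higher (deposited log2 fold change 2.55) and CEBPA as lower (-3.32). Of 35 nuclear receptor genes, the superfamily of RORA, NR4A3 and VDR were listed as higher (1.97 and 1.55) and THRB and RXRA as lower (-1.79 and -1.06). HES1, a Notch target, was listed as higher among 9 genes of the HES and related bHLH families (1.07).

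Over the whole table, reads on listed genes numbered 2718393 to 3424328 per licensed and 1672419 to 1844648 per naive library, and whole-library depth is unknown. Of 13 symbols of MSC surface markers, THY1 and MCAM were listed, both as lower. Their summed level was 430 to 4947 normalized counts in licensed and 5409 to 31508 in naive cultures. THY1 made up most of it, with 298 to 4743 in licensed and 4625 to 31119 in naive cultures. Of 11 adipocyte and osteoblast markers, ADIPOQ, IBSP and ALPL were listed as higher and FABP4 as lower. Their sum was 2229 to 25503 in licensed and 582 to 7396 in naive cultures. ALPL alone had 2146 to 23660 in licensed and 501 to 7049 in naive cultures. The adipocyte genes ADIPOQ and FABP4 added little, with highest values of 123 and 76.4. The part of these shifts in the clock gene values was not tested. Of the myeloid, lymphoid, endothelial and erythroid markers 0 were listed, and their levels are not analysed here.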

How the data were processed

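The authors' deposited table was the only file used. The submitters' processing notes name Trimmomatic 0.36, STAR 2.5.2b, Subread 1.5.2 with featureCounts, and DESeq2. Genome build, annotation and strand setting are not given in the sources used, so reads from a gene and an overlapping antisense partner may be mixed. The deposited signal, here called normalized counts, is reads divided by a size factor per library. Dividing by a step per library returned whole reads for 100% of values (tolerance 0.01 reads), and these were used as recovered reads. The step of horse 1's licensed library, 1.01, is near that of rounded values. Each deposited log2 fold change and p-value comes from the authors' test. The table holds only genes past their limits (largest adjusted p 0.0499, smallest absolute log2 fold change 1.00). The number of tested genes, 13183, makes 89.8% of 402 ranks whole within 0.05, against 15.2% for the next best number.

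Means and SEs come from limma 3.58.1 (trend and robust, R 4.3.3) on log2(normalized count + 1) over all 1341 genes, without a term for the horse. The scale understates changes of low genes. At the authors' limits it called 649 genes higher and 627 lower, which repeats the authors' selection. Horse numbers pair libraries by donor, and deviations from the group means of the same horse correlated at 0.484 to 0.631 over listed genes. Fits and permutations were tested on simulated data. edgeR 4.0.16 and DESeq2 1.42.0 on recovered reads were alternatives. Other alternatives were the pseudocount, a filter on low values, the horse as a block, another scaling and leaving out each horse. The 8 genes and the gene lists were chosen with earlier results of these data known. The text names the 8 genes, any listed gene of the clock loop, up to 4 with the largest deposited change of each other list, and the 2 nearest genes of each clock gene. CYP7A1 and TNFAIP3 were added after their values were seen, and 1 gene that the rule names is not reported here.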

Additional observations from a re-analysis of the deposited data

Results flagged for a closer look

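In naive cultures the NFIL3 level of horse 1 stood apart from that of the other 5 horses. Its gap to the nearest of them was 0.726 of the whole range on the log2 scale, past Dixon's critical value for 6 samples. It was the only flag among 24 groups of values (8 genes, each in licensed cultures, in naive cultures and as the difference), and chance flags about 1 in 20 such groups. The same library held high levels of TNFAIP3, and the part of either in the other was not tested.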

How the results depend on the processing

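All 8 clock genes kept the direction of their difference under every alternative run. Scaling each library to its sum over listed genes shifted the median listed gene by -0.61 on the log2 scale. The log2 differences became 0.86 for ARNTL, 0.43 for NPAS2, 0.56 for RORA, 1.01 for NFIL3, -1.76 for PER3 and -1.83 for DBP. BHLHE40 (1.24) and HLF (-1.57) shifted about as far and stayed within 1 SD only because they varied more between horses. Limma's adjusted p, which supports no call here, was below 0.05 for all 8 genes in every limma fit run but these. For NPAS2 and RORA it was 0.210 and 0.0901 with this scaling, and for HLF 0.0632, 0.105 and 0.0694 without horse 2, 4 or 5. With this scaling limma called 315 listed genes higher and 668 lower, against 649 and 627. edgeR on recovered reads, which shifted the median listed gene by -0.25, gave -1.46 for DBP and called 474 genes higher and 671 lower, and 468 and 665 without horse 1, a setting chosen after seeing the data. The cause of the edgeR shift, where scaling and model both changed, was not tested. Leaving out each horse in turn gave 0.89 to 1.16 for NPAS2, 1.61 to 2.03 for BHLHE40 and -1.28 to -0.75 for HLF. With the horse as a block the differences were the same and limma called 655 genes higher and 641 lower. The SE of each of the 8 genes was then smaller, for example 0.21 against 0.32 for NPAS2 and 0.33 against 0.38 for HLF. The block changed no direction. No relation between clock genes passed the adjusted threshold with rho or with a pseudocount of 5. The low reads of HLF and RORA limit their precision.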
